A study of Mus musculus with 10 samples.

Results

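The genes that encode the receptors for glutamate and GABA, the main excitatory and inhibitory transmitters of the brain, were examined in ChIP-seq site lists from mouse embryonic stem cells (ESCs). The 41 genes were taken by symbol from the 22380 protein-coding genes of the GENCODE vM1 annotation of mm9. They comprise 12 GABA-A subunits of the alpha, beta and gamma classes, 3 rho subunits, 2 GABA-B subunits, 4 AMPA, 5 kainate and 7 NMDA receptor subunits, and 8 metabotropic glutamate receptors. A gene was counted for a list when the nearest edge of a site lay within 2 kb of any annotated transcript start of that gene.

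In ChIP-seq, an antibody pulls down a protein or histone mark with its DNA, which is then sequenced. Suz12-TAP (FlagM2 antibody) and H3K27me3 were profiled in ESCs of the gene trap line XG122 with the genotype Suz12 Suz12TAP/+, in which 1 Suz12 allele carries a TAP tag, and which expressed either scramble or Pcl3 shRNA. Pcl3-TAP was profiled with the same antibody in E14 ESCs that carried a tagged Pcl3 construct and an shRNA against wild type Pcl3, 1 library with shRNA 7 and 1 with shRNA 6. The 10 libraries comprised 6 ChIP and 4 input libraries. Each condition had 1 library, except Pcl3-TAP and its input with 2 each and 1 site list between them, so no difference between conditions has a replicate check.

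The 4 lists hold 8876 Suz12 sites in scramble cells, 5242 Pcl3 sites, 5722 Suz12-depleted sites and 678 H3K27me3-depleted sites, where depleted means lower in Pcl3 shRNA than in scramble cells. Each site has a position and 1 p-value from the Skellam distribution, which describes the difference of a pair of read counts. All 5722 Suz12-depleted sites have the position and p-value of a site in the Suz12 list, so that p-value describes binding in scramble cells and not the loss. A p-value written as 0 was too small for the number format. The lists give no read counts, so the depth behind a single site is unknown. Among 8 genes that mark ESCs, Suz12 sites lay at Esrrb and Klf4 and at none of the other 6. Site lists hold no expression, so the labelled cell type could not be checked by its markers.

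Suz12 is a core subunit of Polycomb repressive complex 2 (PRC2), which trimethylates lysine 27 of histone H3 (H3K27me3) and keeps developmental genes silent, and Pcl3 is an accessory subunit of the complex. In mammals PRC2 is found mostly at CpG islands, stretches of DNA rich in the CG dinucleotide. Receptors for glutamate and GABA act at the synapses of neurons. AMPA, kainate and NMDA receptors are cation channels opened by glutamate, GABA-A receptors are chloride channels opened by GABA, and metabotropic glutamate and GABA-B receptors signal through G proteins.

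Most of these genes carried Suz12 at a start. A Suz12 site lay within 2 kb of a start of 31 of the 41 genes, or 75.6% (95% Wilson interval 60.7% to 86.2%), beside 24.6% of all protein-coding genes. A Pcl3 site was found at 21 genes, or 51.2% (36.5% to 65.7%), beside 12.5% of all genes. A Suz12-depleted site was found at 27 genes, or 65.9% (50.5% to 78.4%), beside 17.6% of all genes. An H3K27me3-depleted site was found at 3 genes, Grik3, Grik4 and Grin2c, or 7.32% (2.52% to 19.4%), beside 1.91% of all genes. The 3 genes became 2, without Grik3, when sites had to lie within 1 kb, and only Grik3 had such a site with a p-value of at most 1e-10. The intervals are over genes and cover counting error only, and related genes are not independent.

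The 31 genes held 40 Suz12 sites within 2 kb of a start, 32 of them over a start, and 9 genes had more than 1 site. Of the 40 sites, 33 were in the depleted list, beside 5722 of the 8876 Suz12 sites of the whole list. By kind of receptor, Suz12 was found at 15 of 16 genes for glutamate-gated channels (93.8%, 71.7% to 98.9%). It was found at 8 of 15 genes for GABA-gated channels (53.3%, 30.1% to 75.2%), beside 24.6% of all genes. The difference between the kinds was not tested. The following distances are to the nearest site of each gene, which decides its call, and further sites of the same genes can lie farther from a start. Among genes with a Suz12 call the largest distance to the nearest Suz12 site was 330 bp (Gabrb1), and among genes without a call the smallest was 17552 bp (Grm5). For Pcl3 these distances were 830 bp (Gabrb1) and 5349 bp (Grin1). For the Suz12-depleted list the smallest distance of a gene without a call was 2197 bp, at Grin3b. For the H3K27me3-depleted list the largest distance with a call was 1007 bp (Grik3) and the smallest without was 5499 bp (Grin1).

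**Figure D1:**
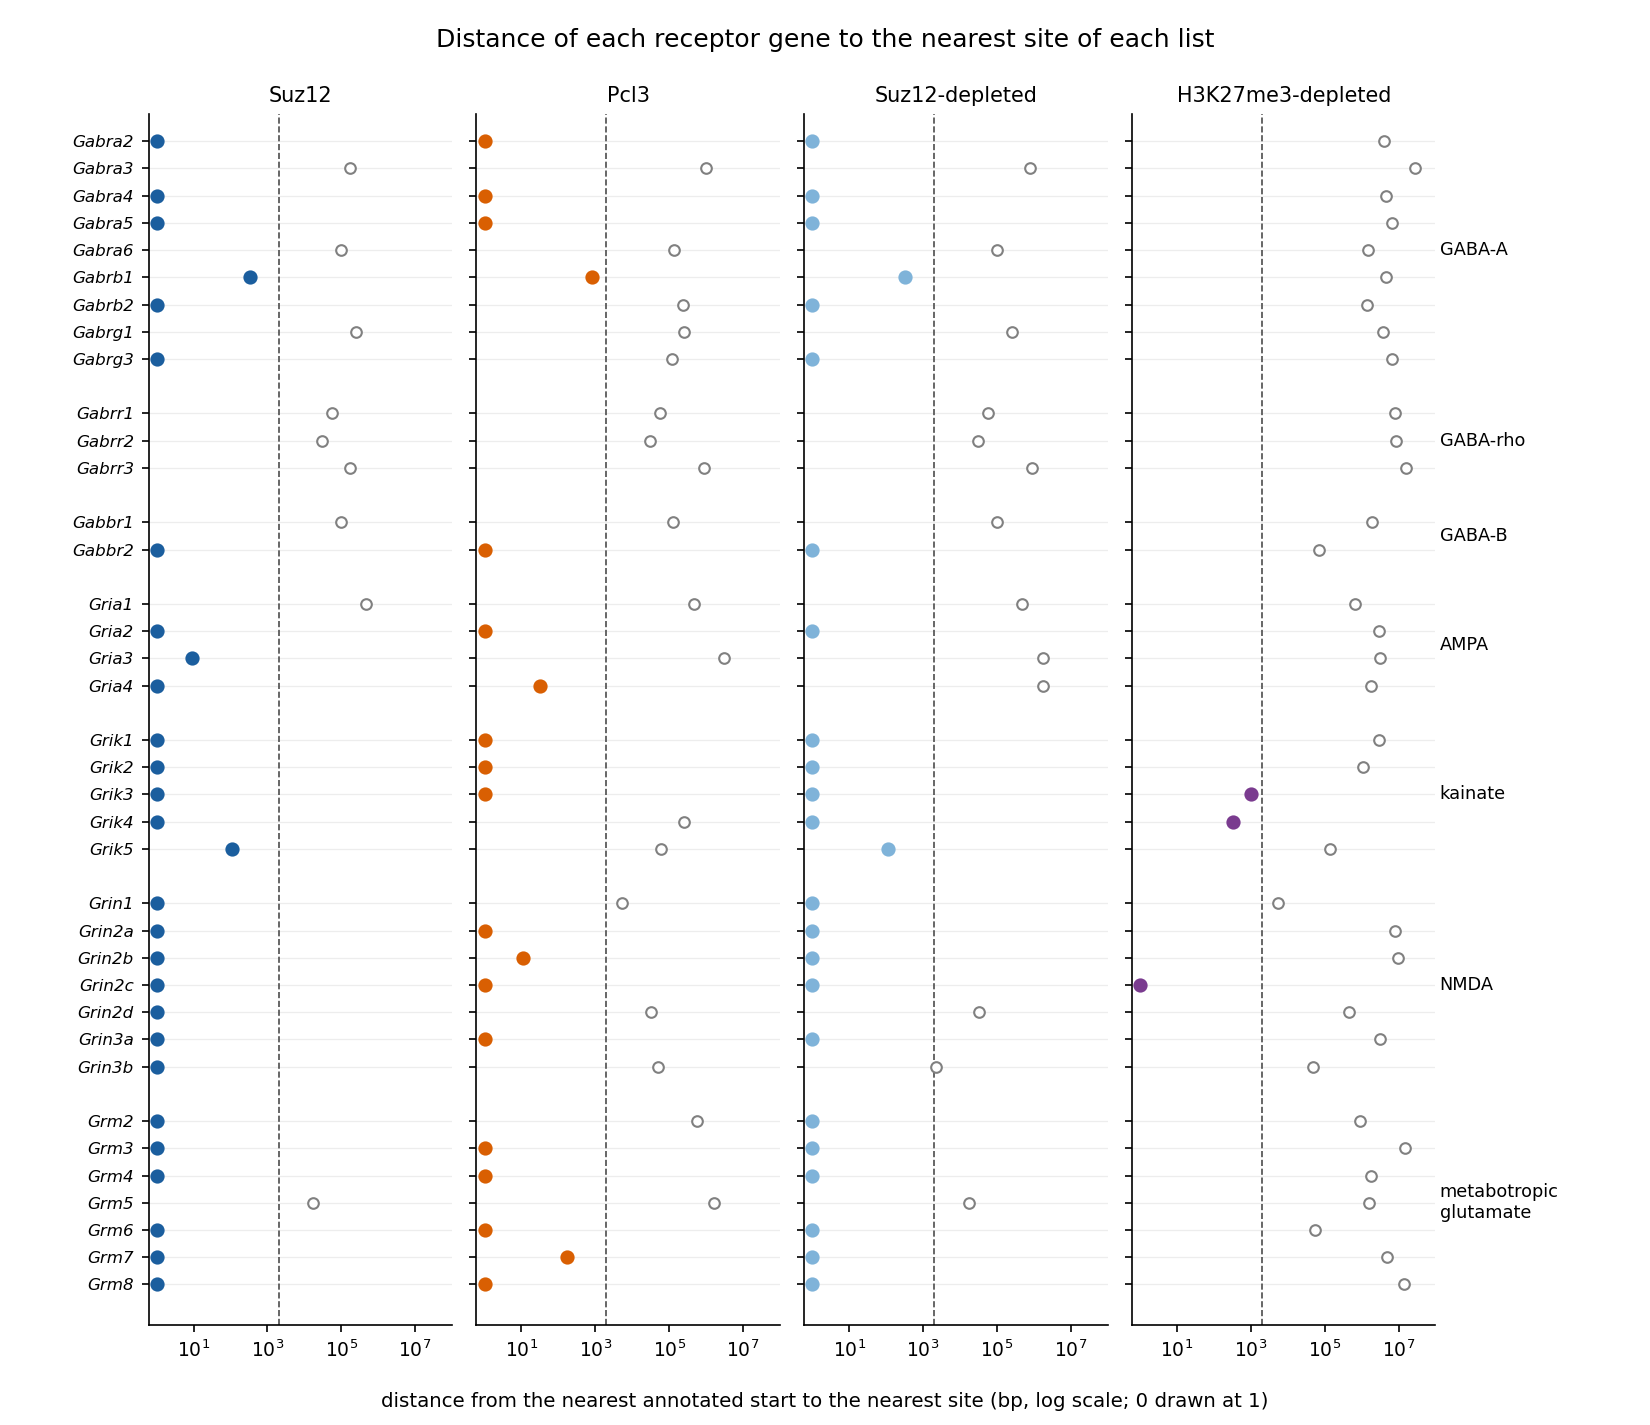
Distance in bp (log scale) from the nearest annotated start of 37 of the 41 receptor genes (rows, grouped by family) to the nearest site of each list (panels). Filled points lie within the dashed line at 2 kb and open points beyond it, and a site over a start, at distance 0, is drawn at 1. Suz12 sites lie over or close to a start at 28 of the genes shown, and the other 9 have none closer than 17552 bp.

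The combinations of lists at these genes are given beside their shares of all genes. A Suz12-depleted site cannot occur without Suz12, since every such site is also in the Suz12 list. The most frequent combination, with Suz12, Pcl3 and Suz12-depleted sites, was found at 18 genes, among them Gabbr2, Gabra2, Gabra4, Gabra5, Gabrb1, Gria2, Grik1, Grik2, Grin2a, Grin2b, Grin3a, Grm3, Grm4, Grm6, Grm7 and Grm8. It held 43.9% of the receptor genes and 9.54% of all genes. Grik3 and Grin2c had sites of all 4 lists (4.88% beside 1.37% of all genes), and Grik4 had all but Pcl3 (2.44% beside 0.411%). Only Suz12 and Suz12-depleted sites were found at 6 genes (14.6% beside 6.24%), among them Gabrb2, Gabrg3, Grik5, Grin1 and Grm2. Suz12 sites alone were found at Gria3, Grin2d and Grin3b (7.32% beside 6.21%, near the share of all genes). Gria4 had Suz12 and Pcl3 sites outside the depleted list (2.44% beside 0.733%). No site of any list lay at the starts of 10 genes (24.4% beside 74.6%), among them Gabbr1, Gabra3, Gabra6, Gabrg1, Gabrr1, Gabrr2, Gabrr3, Gria1 and Grm5.

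The NMDA receptor genes all had a Suz12 site (7 of 7), 4 had a Pcl3 site and 5 were in the Suz12-depleted list, with decreased H3K27me3 at Grin2c. NMDA receptors need the subunit encoded by Grin1, together with Grin2 or Grin3 subunits. Grin2a, whose subunit prevails in the mature forebrain, had the widest Suz12 site of the 41 genes, 4350 bp at chr16:9992001-9996350 with a p-value written as 0. The site covered all 3 annotated starts, UTR and coding sequence, and Pcl3 sites of 2700 bp (1.77e-99) and 750 bp (6.52e-15) lay within it. Grin3a, which encodes a glycine-binding subunit, had a Suz12 site of 2200 bp at chr4:49856951-49859150 (1.91e-164) with a Pcl3 site of 1650 bp (4.41e-48). Grin2b, the Grin2 gene that prevails early in development, had a Suz12 site of 2200 bp at chr6:136121801-136124000 (1.35e-93) with a Pcl3 site of 1400 bp (1.06e-27). All 3 Suz12 sites were in the depleted list.

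The other NMDA receptor genes varied more. Grin1 had Suz12-depleted sites at 2 groups of starts and no Pcl3 site at either, 1150 bp at chr2:25173951-25175100 (6.99e-42) over the upstream starts and 800 bp at chr2:25160451-25161250 (6.55e-18) over coding sequence. Grin3b had a site of 900 bp at chr10:79433351-79434250 (8.84e-20) and Grin2d, a subunit gene of the early brain, a site of 600 bp at chr7:53126051-53126650 (1.48e-10). Neither of these sites was in the Pcl3 or the depleted list. The Grin2d site also lay within 2 kb of a start of Kdelr1, so it cannot be assigned to either gene alone.

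The kainate receptor genes also all had a Suz12 site (5 of 5), each in the depleted list, and 3 had a Pcl3 site. Grik1, Grik2 and Grik3 encode subunits that form channels on their own, and Grik4 and Grik5 encode subunits that need them as partners. Grik1 had a Suz12 site of 1750 bp at chr16:88289251-88291000 (1.94e-87) and a Pcl3 site of 1250 bp (1.45e-31). Grik2 had 2 Suz12-depleted sites about different starts, 1350 bp at chr10:49502301-49503650 (1.78e-40) and 1050 bp at chr10:49507901-49508950 (1.31e-38). Only the upstream of these Grik2 sites shared bases with a Pcl3 site, 900 bp wide (8.42e-18). Grik5 had a narrow Suz12 site of 650 bp at chr7:25857501-25858150 (4.14e-12), 113 bp upstream of its start.

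The 3 genes with an H3K27me3-depleted site at a start differed in the arrangement of their sites. At Grik3 a Suz12 site of 3250 bp at chr4:125166501-125169750 (3.03e-240) covered the start, and Pcl3 sites of 600 bp each (4.33e-11 and 4.19e-10) lay within it, between positions −893 and 456 relative to the start. The H3K27me3-depleted site of Grik3, 1800 bp at chr4:125168951-125170750 (3.24e-13), began 1007 bp downstream, in the intron, and shared bases with the Suz12 site and not with the Pcl3 sites. A second, weaker Suz12 site of 550 bp at chr4:125165751-125166300 (2.99e-09) lay 1644 bp upstream, outside the depleted list. At Grik4 a Suz12-depleted site of 2400 bp at chr9:42750951-42753350 (2.33e-84) covered the upstream start. The H3K27me3-depleted site of Grik4, 1500 bp at chr9:42750751-42752250 (4.38e-10), lay 326 bp downstream of that start in the intron, and the nearest Pcl3 site was 260875 bp from a start.

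At Grin2c, whose subunit is best known from the cerebellum, the sites of all 4 lists shared bases over the upstream start. The Suz12 site was 2850 bp wide at chr11:115126251-115129100 (4.52e-209) and covered both annotated starts, and the Pcl3 site was 1300 bp wide at chr11:115127551-115128850 (9.51e-31). The H3K27me3-depleted site of 1750 bp at chr11:115127201-115128950 (1.36e-10) ran from position −393 to 1356 relative to the start. A weaker Suz12 site of 450 bp (1.08e-08) lay 744 bp upstream, outside the depleted list. The sites at Grin2c lay within 2 kb of a start of Fdxr, a gene of another function. Grin2c lies on chromosome 11, where 7.5% of all genes had an H3K27me3-depleted site, and without that chromosome 2 of 34 receptor genes, or 5.88%, had one, beside 1.47% of all genes. The part of the chromosome in the call at Grin2c was not tested. By p-value the 3 H3K27me3-depleted sites ranked 95 (Grik3), 211 (Grin2c) and 246 (Grik4) among the 678 sites.

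**Figure D2:**
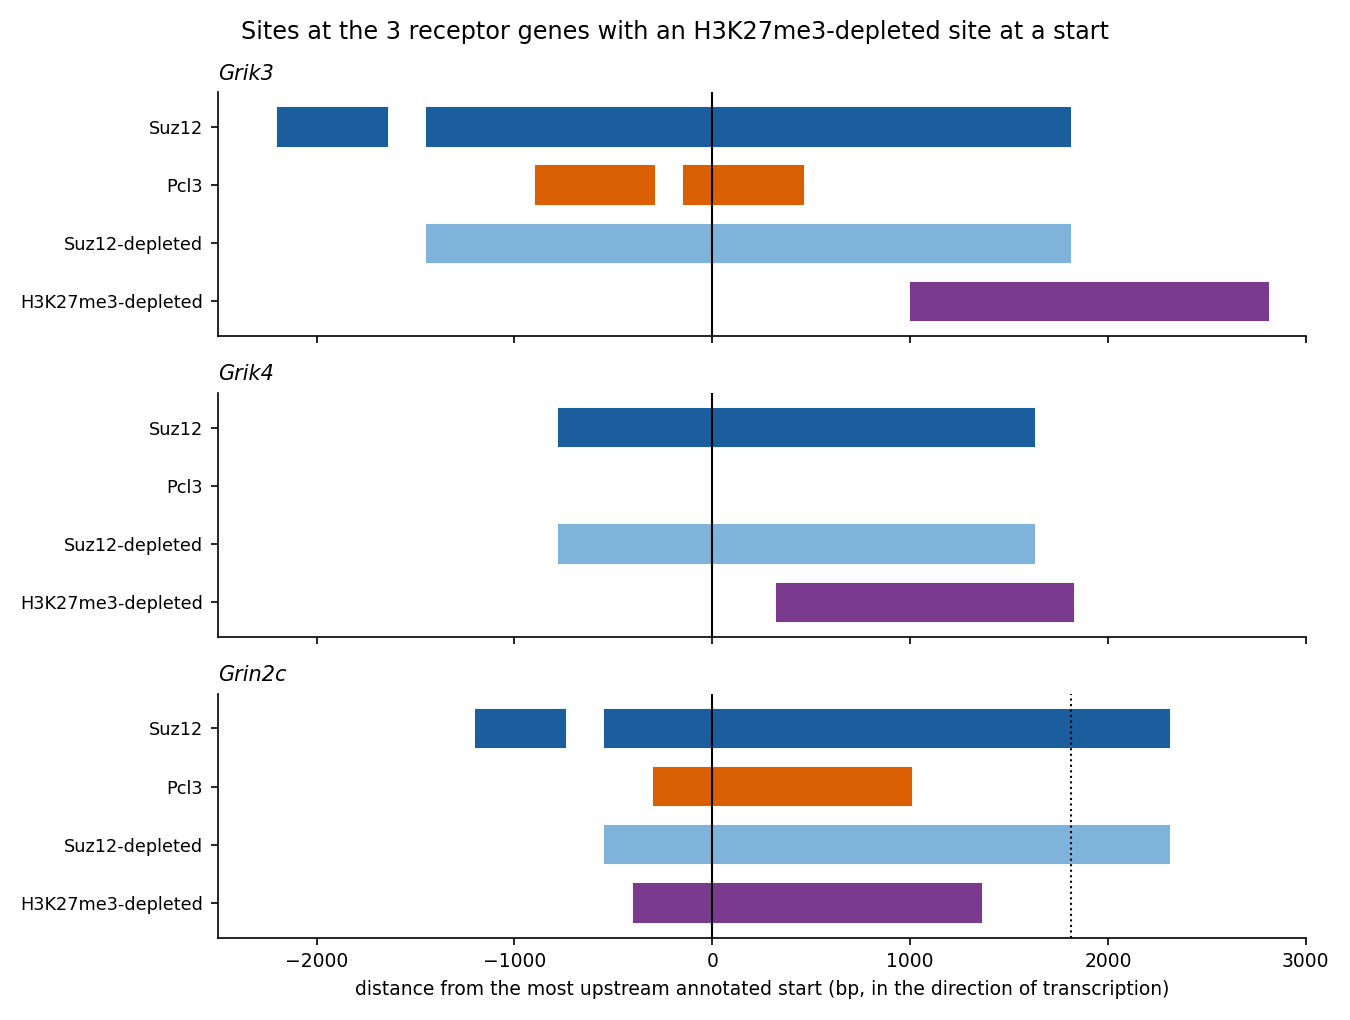
Sites of the 4 lists (bars) at Grik3, Grik4 and Grin2c by distance in bp from the most upstream annotated start, in the direction of transcription. The solid line is that start and the dotted line a second start of Grin2c. The H3K27me3-depleted sites of Grik3 and Grik4 begin 1007 bp and 326 bp downstream of the start, and that of Grin2c lies across it.

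Of the AMPA receptor genes, 3 of 4 had a Suz12 site and 1 had a Suz12-depleted site. Gria2, whose subunit makes the channel poorly permeable to calcium, had 2 Suz12-depleted sites, a narrow one over its start, 750 bp at chr3:80606451-80607200 (1.75e-15), and a stronger one in the intron 1163 bp downstream, 1500 bp at chr3:80604051-80605550 (2.21e-49). A Pcl3 site lay within each Suz12 site or overlapped it, 400 bp (8.18e-08) at the start and 500 bp (6.07e-10) in the intron. Gria3 had a Suz12 site of 800 bp at chrX:38754751-38755550 (1.94e-16), and Gria4 a site of 700 bp at chr9:4795501-4796200 (5.98e-12) with a Pcl3 site of 450 bp (8.89e-09). Both were outside the depleted list. Gria1 had no Suz12 site closer than 468081 bp to a start, the largest distance among the 41 genes.

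Of the 8 metabotropic glutamate receptor genes, Grm2, Grm3, Grm4, Grm6, Grm7 and Grm8 had a Suz12 site in the depleted list, and all of these but Grm2 had a Pcl3 site. Grm5 belongs to group I, which raises intracellular calcium, and the others named here to groups II (Grm2 and Grm3) and III (Grm4, Grm6, Grm7 and Grm8), which lower cyclic AMP. The 4 group III genes had Suz12 and Pcl3 sites together. Grm4 had a Suz12 site of 4250 bp at chr17:27647551-27651800 with a p-value written as 0 and a Pcl3 site of 3100 bp (1.30e-131), the strongest Pcl3 site of the 41 genes. A second start of Grm4 had a Suz12-depleted site of 1250 bp at chr17:27639301-27640550 (1.73e-33) and a Pcl3 site of 650 bp (1.77e-11). Grm8 had a Suz12 site of 3450 bp at chr6:28082951-28086400 (3.99e-255) and 3 Pcl3 sites, 1 of 3300 bp (4.22e-106) inside the Suz12 site and 2 in the intron beyond it. Those were the only 2 of the 30 Pcl3 sites at starts of these genes that shared no base with a Suz12 site. Grm6, which relays light signals in the retina, had a Suz12 site of 1700 bp at chr11:50663801-50665500 (1.42e-148) and a Pcl3 site of 1100 bp (1.54e-29). Grm7 had a Suz12 site of 2350 bp at chr6:110595151-110597500 (3.06e-130) and a Pcl3 site of 700 bp (1.91e-13).

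The group II genes had weaker Suz12 sites than the group III genes. Grm3 had a Suz12 site of 1750 bp at chr5:9724601-9726350 (1.46e-59) and a Pcl3 site of 1150 bp (1.70e-28). Grm2 had a Suz12 site of 1350 bp at chr9:106557651-106559000 (2.84e-39) and a further one of 400 bp (3.94e-08), with no Pcl3 site. Grm5 had no site at a start. The nearest Suz12 site lay 17552 bp away.

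Of the 12 GABA-A subunit genes, 8 had a Suz12 site, all 8 in the depleted list, 6 had a Pcl3 site and none had an H3K27me3-depleted site (Wilson upper bound 24.2%). Most GABA-A receptors combine alpha and beta subunits, which form the GABA site, with a gamma subunit. Gabra5, whose subunit is abundant in the hippocampus, had the strongest site of the class, 1800 bp at chr7:64764051-64765850 (1.10e-128), with a Pcl3 site of 1900 bp (8.01e-77). Gabra2 had a site of 1800 bp at chr5:71486151-71487950 (3.34e-66) and Gabra4 a site of 1400 bp at chr5:72048451-72049850 (9.86e-53). Their Pcl3 sites had p-values of 2.30e-38 and 1.63e-15.

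The beta subunit gene Gabrb1 had a Suz12-depleted site of 1400 bp at chr5:72091501-72092900 (1.24e-60), 330 bp downstream of its start over coding sequence, with a Pcl3 site of 750 bp (1.53e-13). Gabrb2, of the same class, had a site of 1050 bp at chr11:42233101-42234150 (2.50e-27) and no Pcl3 site closer than 236309 bp. The gamma subunit gene Gabrg3 had a site of 1350 bp at chr7:64641651-64643000 (1.51e-42) without Pcl3, and that site also lay within 2 kb of a start of Gm9962.

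Most GABA-A genes stand in clusters, and the calls differed between neighbours. In the chromosome 5 cluster of 4 genes, Gabra2, Gabra4 and Gabrb1 had Suz12 sites and Gabrg1 had none closer than 252295 bp. In the chromosome 11 cluster Gabrb2 had a site and Gabra6 had none closer than 98527 bp. In the chromosome 7 cluster Gabrg3 and Gabra5 had sites. Gabra3 on the X chromosome had none closer than 168164 bp. Gabra6 is known for its restriction to granule cells of the cerebellum.

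The rho subunit genes, which form GABA-gated channels mainly in the retina, had no site of any list at a start (0 of 3, Wilson upper bound 56.1%). The nearest Suz12 sites lay 56270 bp from Gabrr1, 30724 bp from Gabrr2 and 167092 bp from Gabrr3. The GABA-B receptor is a pair of different subunits, and its genes differed. Gabbr2, whose subunit couples to the G protein, had a Suz12-depleted site of 3850 bp at chr4:47002401-47006250 (7.53e-273) with Pcl3 sites of 1600 bp (6.57e-34) and 400 bp (2.42e-08). Gabbr1, whose subunit binds GABA, had no Suz12 site closer than 98311 bp to its 12 annotated starts.

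Of the 31 genes with Suz12, 21 had a Pcl3 site, or 67.7% (50.1% to 81.4%), beside 47.4% of all genes with Suz12. A Suz12-depleted site was found at 27 of the 31, or 87.1% (71.1% to 94.9%), beside 71.5%, and an H3K27me3-depleted site at 3, or 9.68% (3.35% to 24.9%), beside 7.53%. With Pcl3, 20 of 21 receptor genes were in the depleted list, and without Pcl3, 7 of 10, beside 93.6% and 51.5% of all genes with Suz12.

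Site strength differed between genes with and without these calls. Ranges of strength were taken by the strongest Suz12 site within 2 kb of a start of a gene. By that measure 5 receptor genes had a −log10 p-value under 20: Grin2d, Gria4, Grik5, Gria3 and Grin3b. Away from their starts, Grin2d and Grik5 had stronger Suz12-depleted sites (8.87e-219 and 7.66e-86), which are not counted here. At a start, only Grik5 of the 5 was in the depleted list. All 26 genes with stronger sites were in it. Among all genes the share in the depleted list was 24.3% with a −log10 p-value under 20, 86.4% from 20 to 50, 98.8% from 50 to 100 and 100.0% from 100 on. For Pcl3 the receptor genes gave 1 of 5, 3 of 8, 7 of 8 and 10 of 10 in these ranges, beside 10.8%, 33.3%, 68.2% and 96.4% of all genes. In each range the Wilson interval of the receptor genes held the share of all genes, for both lists. The depleted list was called with the same scramble Suz12 library that gave these p-values, so strength and depletion are not independent measures. The paper states that a change in binding may be harder to detect at weaker peaks. The part of site strength in the counts at the receptor genes was not tested.

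Measured at the site nearest each start, the median −log10 p-value of the Suz12 sites was 59.9 at the 31 receptor genes and 35.1 at all 5499 genes with Suz12, and the median widths were 1700 bp and 1300 bp. The depleted list rests on the same scramble library as these p-values. The median −log10 p-value was 78.6 at the 27 genes in that list and 13.5 at the 4 outside it. It was 92.9 at the 21 genes with Pcl3 and 29.1 at the 10 without. For Pcl3 sites the medians were 28.8 at 21 receptor genes and 21.6 at 2789 genes. The widest Suz12 sites of the genome reach 16950 bp, and 2 receptor genes, Grin2a and Grm4, had sites of 4 kb or more, beside 311 of the 5499 genes.

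**Figure D3:**
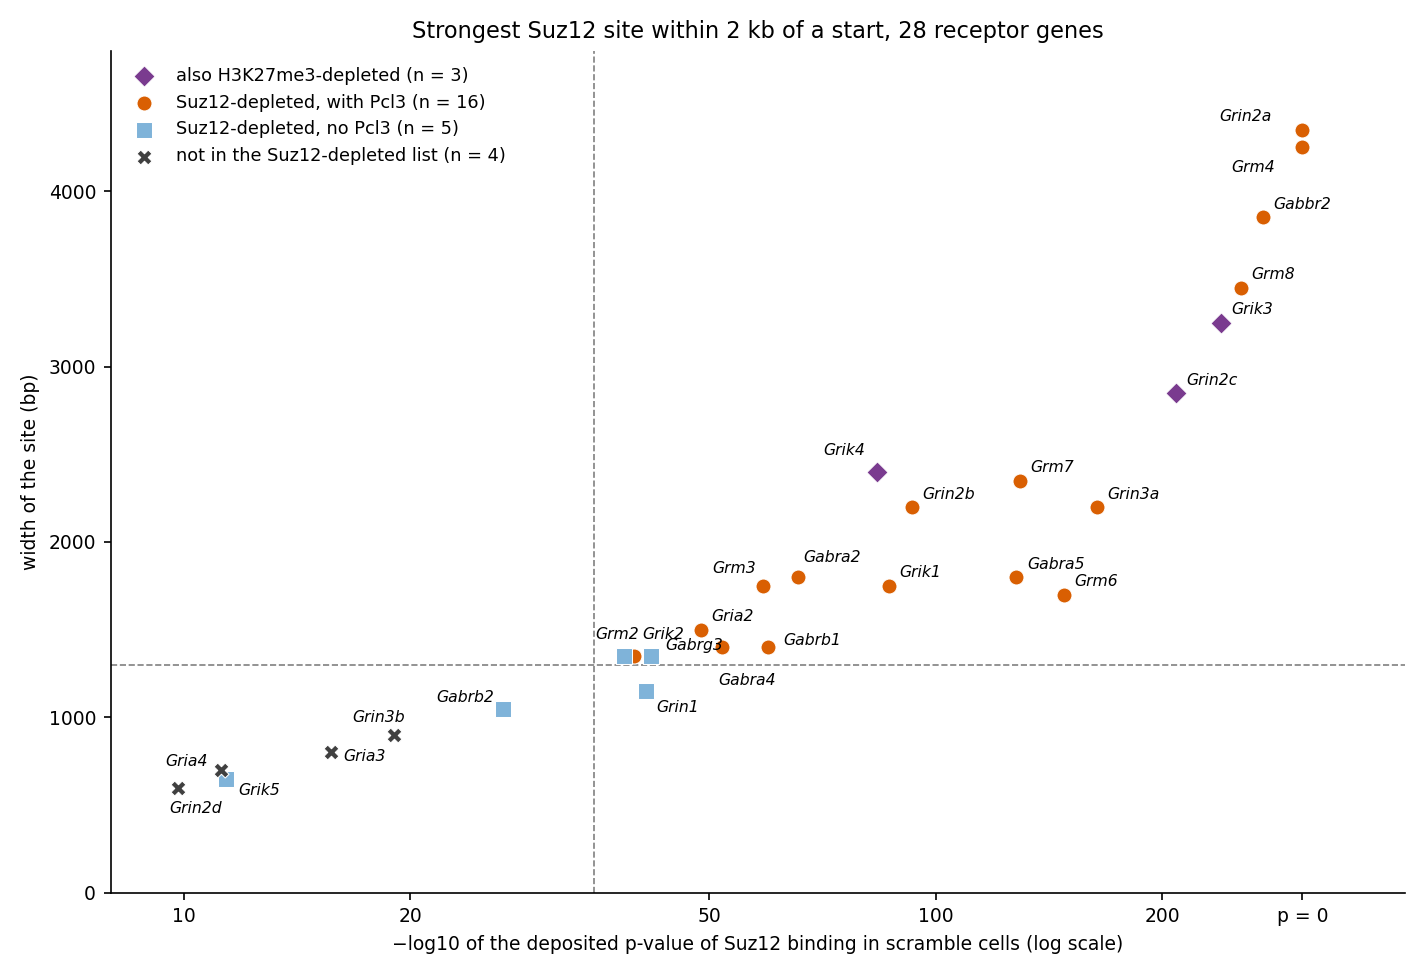
Width in bp against the −log10 of the deposited p-value (log scale) of the strongest Suz12 site within 2 kb of a start of 28 receptor genes, with symbols for the other lists. Dashed lines are the medians of all genes with Suz12, and p-values written as 0 stand at the right. The 4 genes outside the depleted list have sites of 600 to 900 bp at the weak end, and Grin2a and Grm4 have the widest.

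The CpG content of the starts also separated genes with and without Suz12. CpG density was taken over 500 bp either side of a start, at the densest start of each gene. Its median was 5.29 CpG per 100 bp at the 31 genes with Suz12 and 1.85 at the 10 without, beside 7.19 and 3.0 among all genes. Among the densest were Grm4 (13.6), Gabbr2 (13.1), Grik3 (12.5) and Grik4 (10.7), and the sparsest Gabra6 (0.599). Starts were put in a high class where a 500 bp window within 1 kb had a GC content of at least 55% and at least 0.75 of the CpG expected from its bases, and in a low class where no window reached 0.48. A Suz12 site was found at 23 of 24 receptor genes of the high class, beside 38.2% of all genes of that class. In the intermediate class it was 8 of 13 beside 22.5%, and in the low class 0 of 4 (Gabra3, Gabra6, Gabrr1 and Grm5) beside 1.61%. The gene of the high class without Suz12 was Gabbr1, with 9.19 CpG per 100 bp.

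**Figure D4:**
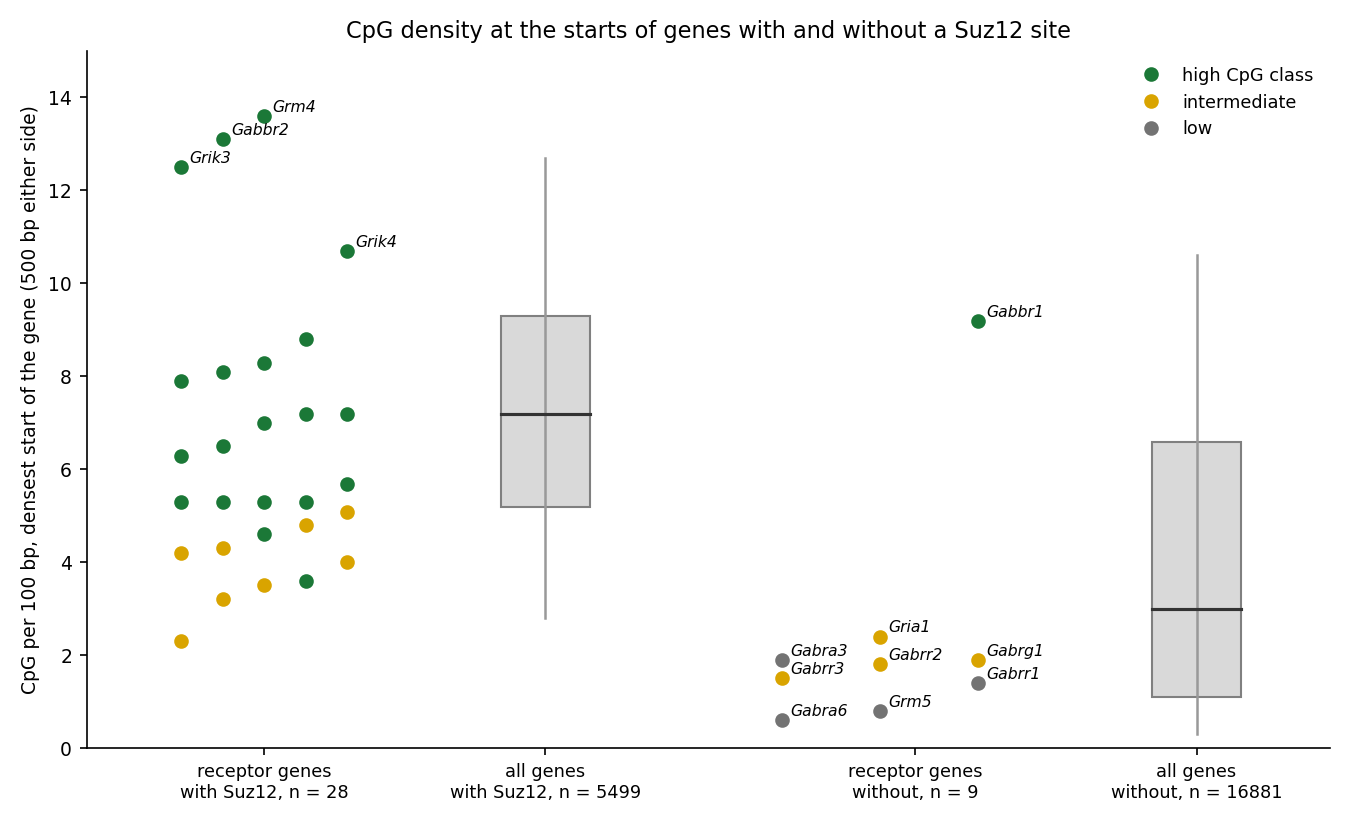
CpG per 100 bp at the densest start of 37 receptor genes (points, colored by CpG class, spread sideways for legibility) with and without a Suz12 site, beside all protein-coding genes (box, quartiles; line in the box, median; whisker, 5th to 95th percentile). Of the genes shown without Suz12, 8 lie between 0.599 and 2.4, and Gabbr1 at 9.19.

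The 250 bases upstream of a start are shown for 6 genes, to set the combinations of sites beside the DNA they lie on. Grik3 and Grin2c had sites of all 4 lists, Grin2a and Grm4 had the strongest Suz12 sites with Pcl3, Grin3b had Suz12 alone and Gabbr1 had no site. The sequences are from the mm9 reference, written 5′ to 3′ on the strand of the gene, with each CG dinucleotide in capitals.
Grik3 chr4:125167694-125167943 (plus strand): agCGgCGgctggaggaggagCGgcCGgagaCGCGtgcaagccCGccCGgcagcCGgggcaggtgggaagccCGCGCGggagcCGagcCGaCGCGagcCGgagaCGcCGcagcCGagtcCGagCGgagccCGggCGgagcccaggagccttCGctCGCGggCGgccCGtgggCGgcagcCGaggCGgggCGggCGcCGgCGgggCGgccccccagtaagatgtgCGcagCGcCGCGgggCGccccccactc
Grin2c chr11:115128558-115128807 (minus strand): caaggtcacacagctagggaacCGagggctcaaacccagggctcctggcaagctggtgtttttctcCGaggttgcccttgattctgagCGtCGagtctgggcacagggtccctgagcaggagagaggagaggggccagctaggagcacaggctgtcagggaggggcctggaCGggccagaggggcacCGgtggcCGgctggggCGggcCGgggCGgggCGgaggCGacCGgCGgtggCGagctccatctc
Grin2a chr16:9995015-9995264 (minus strand): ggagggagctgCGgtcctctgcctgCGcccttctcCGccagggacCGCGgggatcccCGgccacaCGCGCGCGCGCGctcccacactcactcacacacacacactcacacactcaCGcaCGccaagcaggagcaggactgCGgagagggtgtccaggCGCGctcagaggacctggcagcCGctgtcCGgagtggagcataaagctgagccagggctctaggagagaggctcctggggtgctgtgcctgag
Grm4 chr17:27650287-27650536 (minus strand): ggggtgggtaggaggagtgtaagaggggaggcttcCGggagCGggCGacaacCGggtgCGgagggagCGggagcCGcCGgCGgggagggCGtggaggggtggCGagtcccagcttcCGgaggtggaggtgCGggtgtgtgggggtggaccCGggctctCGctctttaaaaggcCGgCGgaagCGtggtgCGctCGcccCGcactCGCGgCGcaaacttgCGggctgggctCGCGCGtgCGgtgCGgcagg
Grin3b chr10:79433210-79433459 (plus strand): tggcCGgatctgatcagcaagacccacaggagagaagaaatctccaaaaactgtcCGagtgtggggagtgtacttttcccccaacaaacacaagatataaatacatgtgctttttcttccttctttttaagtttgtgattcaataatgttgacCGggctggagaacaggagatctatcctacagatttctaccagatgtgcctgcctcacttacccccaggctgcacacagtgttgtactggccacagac
Gabbr1 chr17:37183263-37183512 (plus strand): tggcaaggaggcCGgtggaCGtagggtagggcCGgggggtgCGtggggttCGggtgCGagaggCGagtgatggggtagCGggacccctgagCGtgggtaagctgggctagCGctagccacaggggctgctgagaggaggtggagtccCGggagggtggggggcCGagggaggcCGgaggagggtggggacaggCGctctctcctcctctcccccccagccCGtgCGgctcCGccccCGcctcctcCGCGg

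These windows held 42 CG dinucleotides at Grik3, 30 at Grm4, 20 at Gabbr1, 19 at Grin2a, 15 at Grin2c and 3 at Grin3b. The Gabbr1 window, without any site, held more than those of Grin2a and Grin2c. Gabbr1 and its start were chosen for high CpG density, so this comparison is not an even one. The other genes were chosen by Suz12 p-value and shown at the most upstream start near the site. The windows of Grik3, Grin2c, Grin2a and Grm4 lay wholly inside the Suz12 site, and 109 of the 250 bases of the Grin3b window did. The sequence GCGCGC, which reads the same on both strands, was searched in the 250 bp upstream of every start. It was found at 13 of the 41 genes, or 31.7%, beside 20.7% of all genes. Among the 31 genes with Suz12 the share was 41.9%, beside 36.3% of all genes with Suz12. Among the 10 without Suz12 it was 0.0%, beside 15.6% of all genes without Suz12, and this difference was not tested. Of the 6 windows shown only that of Grin2a held it.

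Further sites lay inside these genes, away from the starts. Counting sites within the gene and 2 kb around it, 13 Suz12 sites at 10 genes lay over 2 kb from every start. The share of all protein-coding genes with such sites was not counted, so the 10 genes have no background beside them. Of the 13 sites, 12 were in the depleted list, beside 5722 of the 8876 Suz12 sites of the whole list. At Grin1, Grin2d and Grik5 the strongest of them had a smaller p-value than any Suz12 site at a start of the gene. At Grin1 a site of 3650 bp at chr2:25144951-25148600, with a p-value written as 0, covered the end of the gene, together with a Pcl3 site of 1700 bp (8.43e-44) and an H3K27me3-depleted site of 1300 bp (2.37e-09) that lay 1 bp beyond it. Starts of Lrrc26 and Tmem210 lie within 2 kb of that site. At Grin2d a site of 2850 bp at chr7:53087401-53090250 (8.87e-219) over coding sequence and 3′ UTR was in the depleted list and shared bases with a Pcl3 site of 1900 bp (9.75e-90), 31801 bp from the nearest annotated start of Grin2d and within 2 kb of a start of Grwd1.

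At Grik5 a Suz12-depleted site of 2550 bp at chr7:25793651-25796200 (7.66e-86) with a Pcl3 site of 1050 bp (1.41e-23) covered the end of the gene, with no other coding start within 2 kb. Grin2c had a Suz12-depleted site of 1850 bp at chr11:115110501-115112350 (3.61e-148) with a Pcl3 site of 1200 bp (5.96e-30) near its end. Grin2c also had 2 H3K27me3-depleted sites over coding sequence, with p-values of 2.77e-09 and 4.29e-08. Grm5, without a site at a start, had a Suz12-depleted site of 1250 bp at chr7:95278301-95279550 (7.85e-44) over coding sequence and 3′ UTR. Such sites also lay in Grik4, Grin3b, Grm2 and Grm6, with p-values from 9.84e-37 at Grm2 and 1.56e-33 at Grik4 to 1.03e-12 at Grm6. With the whole gene counted, 32 of the 41 genes had a Suz12 site (78.0%, beside 26.8% of all genes), 24 a Pcl3 site (58.5%, beside 13.7% of all genes) and 30 a Suz12-depleted site (73.2%, beside 19.2%).

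Genes with related functions, in lists chosen by function, were counted in the same way, and their counts stand beside 24.6% of all genes for Suz12, 12.5% for Pcl3, 17.6% for the Suz12-depleted and 1.91% for the H3K27me3-depleted list. Of 6 subunit genes outside the symbol rule, 4 had Suz12, 2 Pcl3, 3 Suz12-depleted and 0 H3K27me3-depleted sites, with a Suz12 p-value written as 0 at Grid1 and of 1.11e-37 at Gabrd. Of 15 auxiliary subunit genes matched from 16 symbols, 11 had Suz12, 8 Pcl3, 10 Suz12-depleted and 0 H3K27me3-depleted sites, led by Shisa9 (written as 0), Gsg1l (6.49e-262) and Kctd8 (3.63e-205). Of 21 genes for synthesis and transport of glutamate and GABA, 13 had Suz12, all 13 in the depleted list, beside 71.5% of all genes with Suz12. Pcl3 was found at 6 of these 13, or 46.2%, beside 47.4% of all genes with Suz12. Gad1 and Gad2, which encode the enzymes that make GABA, had Suz12 p-values written as 0. Slc32a1, the vesicular GABA transporter gene, had 1.07e-273 and the only H3K27me3-depleted site of its list (1.19e-12).

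Of 21 genes of the postsynaptic scaffold, 14 had Suz12, 9 Pcl3 and 10 Suz12-depleted sites, led by Dlgap2 (written as 0), Shank1 (8.48e-282) and Dlgap1 (7.86e-114). Shank3 had the only H3K27me3-depleted site of the scaffold genes (7.56e-08). Of 61 receptor genes for other transmitters, 37 had Suz12, or 60.7% (48.1% to 71.9%), 22 Pcl3, 35 Suz12-depleted and 6 H3K27me3-depleted sites. The latter were Adra1b (1.23e-12), Adra1d (1.33e-07), Adrb3 (9.42e-08), Drd4 (8.27e-09), Drd5 (1.59e-09) and Htr1a (4.57e-08). Adra2c, Adra2a and Adrb1 led this list by Suz12 p-value, written as 0, and width. The interval of these 61 genes overlapped that of the 41 glutamate and GABA receptor genes for each of the 4 lists, and the difference was not tested.

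**Figure D5:**
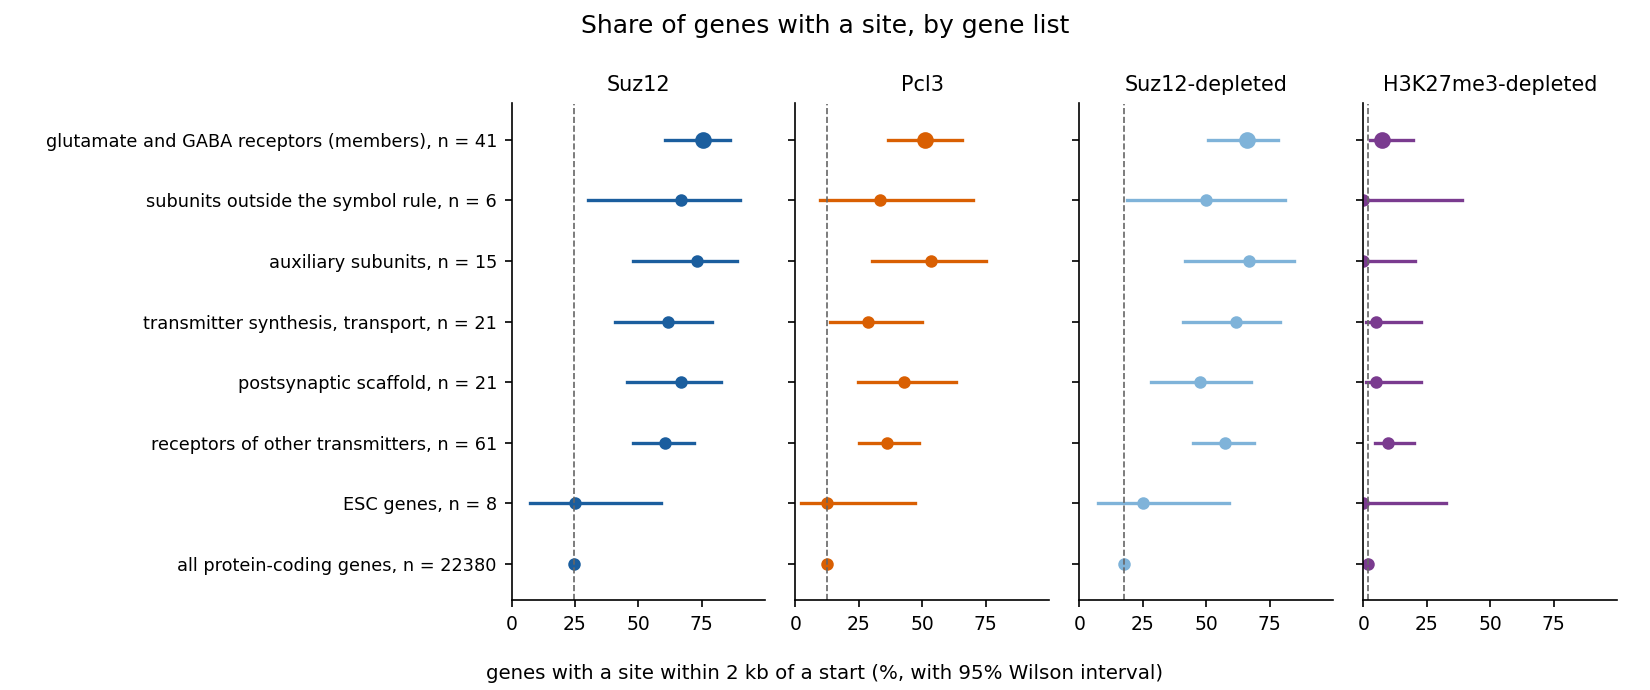
Share of genes with a site of each list within 2 kb of a start (points, %) with 95% Wilson intervals over genes (lines), for the 41 receptor genes, 6 other gene lists and all protein-coding genes (dashed line). The receptor genes stand at 75.6%, 51.2%, 65.9% and 7.32%, and their intervals overlap those of the other synaptic lists.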

How the data were processed

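Per the study's methods, single-end reads of 30 nucleotides were aligned to mm9 by Bowtie and only unique alignments were used. The authors equalized the background of paired libraries, scanned windows of 400 bp at a Skellam p-value cutoff of 1e-07 and joined overlapping windows, with a new p-value for the joined site. The p-value is the only measured value in the 4 deposited lists. The cutoff applied to windows, and the largest p-value of a listed site was 8.84e-07 for Suz12, 6.17e-07 for Pcl3, 1.50e-07 for the Suz12-depleted and 1.04e-06 for the H3K27me3-depleted list. Reads from repeated sequence that do not align uniquely were not counted.

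From the lists, the distance of each site to the transcript starts of GENCODE vM1 (mm9, 1-based coordinates), counts of genes and 95% Wilson intervals were computed. No statistical test was made, since each list gives 1 value per site and none per library. CpG content was read from the mm9 sequence in 500 bp windows at steps of 10 bp. The computation of distances was tried on simulated data, and no value reported here comes from those data. The versions were matplotlib 3.10.9, pandas 2.3.3, numpy 2.4.6 and scipy 1.17.1 under Python 3.11.15.

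The members, gene lists and alternatives were chosen with earlier results of these data known. Members were named with their sites, or their distance to Suz12 where they had none, and a few genes that were counted are not reported here by name. Those with an H3K27me3-depleted site and the 5 with the smallest Suz12 p-value got the fullest account, and genes of other lists were named for an H3K27me3-depleted site or 1 of the 3 smallest Suz12 p-values. Sequences were taken by combination of lists, by smallest p-value or, without a site, by CpG density, at a start whose window held no exon. Ranges of site strength and the account of sites inside genes were chosen after their values were seen.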

Additional observations from a re-analysis of the deposited data

How the results depend on the processing

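The 4 shares of the 41 genes were recomputed under 14 other settings and 2 shares of the genes with Suz12 under 13 of these, without the whole-gene setting, and 77 of 82 values stayed within the main 95% Wilson interval. In all 82 the share of receptor genes was above that of all genes under the same setting. Limited to genes of the high CpG class, the share with a Suz12 site was 95.8%, with a Pcl3 site 70.8% and with a Suz12-depleted site 87.5%, beside 38.2%, 21.4% and 28.4% of all genes of that class. The cause was not tested. With p-values of at most 1e-10 or 1e-12, the share with an H3K27me3-depleted site was 2.44% under both, which is 1 gene, beside 0.634% and 0.371% of all genes. No paired analysis was possible because the result comes from no test and no list holds values per library. No replicate could be left out, since the 2 Pcl3-TAP libraries share 1 list and each other ChIP condition has 1 library. The strongest Suz12 site within 2 kb was not the one nearest a start at 1 gene, Gria2, and the median −log10 p-value was 59.9 either way. The lists hold no read counts, so a gene without a site may hold binding too weak to be called, and the absence of a site from a depleted list does not show that binding was kept.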
